A study of Homo sapiens with 2 samples.

Results

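The genes described are the D-type cyclins and the G1 checkpoint genes around them, 10 protein-coding genes of 19994 in the count table. They are CCND1, CCND2, CCND3, CDK4, CDK6, CCNE1, CDK2, CDKN2A, RB1 and E2F1. The set was chosen by gene symbol around CCND1, the gene with the highest measured ratio between the libraries among coding genes that reached 100 counts over both. Its values in that comparison are therefore a description, and no test was made of them.

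Ribosome profiling sequences RNA fragments that ribosomes protect from nuclease, and the count of a gene is the number of such footprints assigned to it. The 2 libraries came from HEK293T, a wild-type embryonic kidney line by its labels. Both cultures grew in 15 cm dishes with the compound TetBu and received the plasmid pCMV-Nes--chPylRSIPYE (TetRS) carrying 12 cassettes of U6-CM15CGA. TetRS is a pyrrolysyl-tRNA synthetase variant, and U6-CM15CGA gives a tRNA whose anticodon CGA reads the serine codon TCG. The culture titled RiboW also received pEGFP-mCherry-T2A-EGFP-151TCG, a fluorescent reporter in which a TCG codon was placed in EGFP, and the culture titled RiboWo did not. They are called the reporter library and the control library below. The plasmids were expressed for 30 h, and before harvest cells stood for 1 min in 0.1 mg/mL cycloheximide, which stalls ribosomes on mRNA. Each group is 1 library of a transiently transfected culture, so there is no replicate check. Every difference is one between these libraries, in which the reporter cannot be told apart from any other difference between the dishes. No RNA library was used, so more mRNA and more ribosomes per mRNA cannot be told apart, nor can fewer cells of a type and less RNA per cell.

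The G1 checkpoint decides whether a cell commits to copying its DNA. Mitogens induce D-type cyclins, which activate CDK4 and CDK6. These kinases phosphorylate RB1, which then releases E2F transcription factors, and E2F in turn induces cyclin E, the partner of CDK2. The CDKN2A locus encodes p16, an inhibitor of CDK4 and CDK6, and ARF, which holds back the ubiquitin ligase MDM2. HEK293T cells carry adenoviral early genes and the SV40 large T antigen, whose products bind RB, and cells with inactive RB often hold much p16.

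The library with the reporter held 2519301 counts and the one without it 3151403, of which 13.7% and 9.77% lay in coding genes. The reporter row had 271843 counts with the plasmid and 399 without it. TetRS, given to both cultures, had 30286 and 59723. The 8 markers that HEK293 cells express were all detected and summed to 186 counts in the reporter library and 130 in the control library. The neurofilament genes held most of these, NEFL with 106 and 49 and NEFM with 56 and 50. SIX2 had 6 and 6, LHX1 5 and 7, ENO2 4 and 6, INA 3 and 7, PAX2 2 and 4, and EYA1 4 and 1. The leukocyte genes PTPRC and CD3E were at 0 in both. CORO1A had 1 and 14, HLA-DRA 8 and 12, LCP1 0 and 6, CD14 3 and 0, and LYZ 1 and 0. The 7 leukocyte markers summed to 13 and 32 counts, and the 7 fibroblast markers to 20 and 56. The 6 hepatocyte markers summed to 3 and 26, and the 6 keratinocyte markers to 10 and 6. The highest fibroblast markers in the control library were COL1A2 (4 and 21) and COL3A1 (4 and 19). The highest hepatocyte markers there were ALB (0 and 13) and SERPINA1 (0 and 8). The marker sums and the TetRS count thus differed between the libraries too, some higher and some lower with the reporter. Their part in any result was not tested.

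All 10 genes had counts in both libraries, but at low depth. CCND1, CDK4 and CDKN2A reached a summed count of 100, and 9 of the 10 reached 20. CCNE1, at 18, fell just short, and CCND3 and RB1, at 27 each, were the lowest above it. Ratios below are log2 ratios of counts scaled by the TMM method, with over without the reporter. The range given with each is its Clopper-Pearson 95% interval, exact for counting error and for nothing else. Genes at least 2-fold apart whose interval excluded 0 were counted as higher or lower.

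CCND1 and CDKN2A were higher with the reporter, and CCND2, CCND3 and CDK2 were lower. Over all 6296 coding genes with at least 20 counts, the same rule took 6.69% as higher and 6.54% as lower. Since the set was built on this comparison, nothing is read from its share. At a minimum of 100 counts, 2 of the 3 measured genes, CCND1 and CDKN2A, were higher and none was lower. There the rule took 2.83% of 1060 coding genes as higher and 0.566% as lower. Scaling by the total counts of all rows moved the median log2 ratio of coding genes from 0.06 to 0.52. The calls over all genes then went from 421 higher and 412 lower to 1260 higher and 125 lower. CCND1 and CDKN2A were also counted as higher under that scaling, whereas CCND2, CCND3 and CDK2 were no longer counted as lower.

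**Figure D1:**
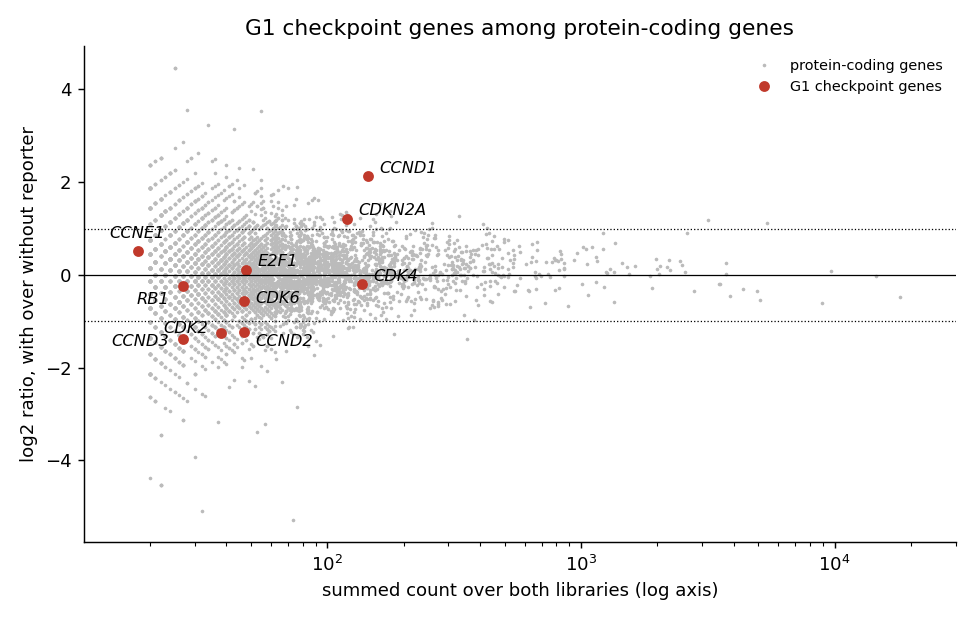
The log2 ratio of scaled counts (with over without the reporter plasmid, vertical) is set against the summed count of both libraries (log axis). Grey points are 6295 protein-coding genes with at least 20 counts (1 gene at 0 in 1 library is not drawn), red points the 10 G1 checkpoint genes, and dotted lines mark 2-fold. CCND1, chosen for its high ratio, lies above all genes of similar count at 2.13. CCND3, CDK2 and CCND2 lie between -1.38 and -1.23 among many genes of similar count.

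Cyclin D1, the product of CCND1, is the D-type cyclin most often amplified or overexpressed in tumours. Its gene (ENSG00000110092, chromosome 11, 69641156 to 69654474, plus strand) had 120 counts in the reporter library and 25 in the control library. That was 8.77 RPKM (7.27 to 10.5 by counting error) against 1.90 (1.23 to 2.81), so the intervals of the 2 libraries did not overlap. The log2 ratio was 2.13 (1.5 to 2.81), or 4.38-fold. Among 507 coding genes whose summed count lay within 25% of that of CCND1, no other had a ratio as high. That follows from the choice of CCND1, which had the highest ratio of all coding genes with at least 100 counts. The central range of the 507 genes, from the 2.5th to the 97.5th percentile, was -0.80 to 1.14. Under 6 other scalings and values the ratio of CCND1 lay between 2.09 and 2.59.

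Cyclin D2 and cyclin D3 bind the same kinases as cyclin D1 and are used to different extents by different cell types. CCND2 (ENSG00000118971, chromosome 12, 4269771 to 4305353) had 15 counts in the reporter library and 32 in the control library. Its log2 ratio was -1.23 (-2.22 to -0.30), or 2.34-fold lower. CCND3 (ENSG00000112576, chromosome 6, 41934934 to 42050357) had 8 counts against 19, with a log2 ratio of -1.38 (-2.78 to -0.12). Both were thus lower in the library in which CCND1 was higher. Such ratios were not rare at this depth. Of 1654 coding genes with a summed count near that of CCND2, 78 (4.72%) had a ratio at or below it, itself included. For CCND3 it was 154 of 1878 (8.20%). Summed, CCND2 and CCND3 had 23 counts against 51 (-1.28, -2.06 to -0.54). With total counts the ratios were -0.77 for CCND2 and -0.92 for CCND3.

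The makeup of the D-type cyclin counts needs no scaling between libraries. CCND1 held 120 of 143 such counts with the reporter, or 83.9% (exact interval 76.9 to 89.5%), and 25 of 76 without it, or 32.9% (22.5 to 44.6%). CCND2 held 10.5% (5.99 to 16.7%) against 42.1% (30.9 to 54.0%), and CCND3 5.59% (2.45 to 10.7%) against 25% (15.8 to 36.3%). CCND1 was therefore the leading D-type cyclin with the reporter, while without it CCND2 had the most counts and the intervals of the 3 shares overlapped one another. Per listed gene length, which favours a shorter gene, CCND1 took 88.5% of the summed RPKM of the 3 cyclins with the reporter and 41.8% without it. Without the reporter the RPKM of CCND1, 1.90, was thus still above 1.45 for CCND2 and 1.19 for CCND3, with overlapping intervals. These shares rest on the same counts by which CCND1 was chosen. The D-type cyclins as a group had 143 counts against 76, a log2 ratio of 0.78 (0.37 to 1.20).

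**Figure D2:**
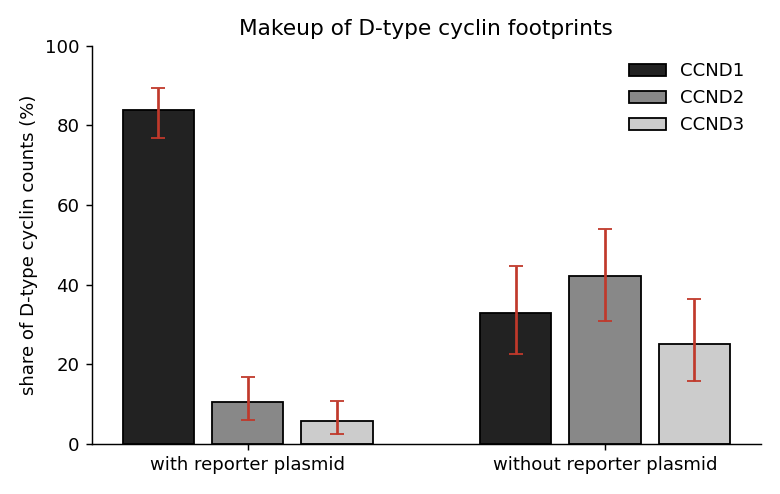
Bars give the share of D-type cyclin footprint counts (%) that CCND1, CCND2 and CCND3 held in each library, and red lines the exact 95% interval for counting error. CCND1 stands at 83.9% with the reporter and 32.9% without it, with intervals that do not overlap.

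CDK4 and CDK6, the kinases that D-type cyclins activate, did not show a detectable difference at this depth. CDK4 (ENSG00000135446, chromosome 12, 57747727 to 57756013) had 67 counts in the reporter library and 70 in the control library, and its log2 ratio was -0.20 (-0.70 to 0.31). The interval allows at most a 1.63-fold lower value. CDK6 (ENSG00000105810, chromosome 7, 92604921 to 92836573) had 20 counts against 27 (-0.57, -1.48 to 0.32). CDK4 held most footprints of the pair in each library, at 77.0% (66.8 to 85.4%) and 72.2% (62.1 to 80.8%) of their counts. The D-type cyclins together made 62.2% (55.6 to 68.5%) of the counts of cyclins D and both kinases with the reporter, and 43.9% (36.4 to 51.7%) without it. CCND1, by which the set was chosen, held 120 of the 143 cyclin counts with the reporter and 25 of 76 without it. CCND2 and CCND3 together had 23 against 51, beside 87 against 97 for CDK4 and CDK6. The direction for CDK4 rests on the scaling, as total counts gave 0.26.

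CDK4 is known as a target of MYC, which binds the E-box CACGTG, and the sequence before its RefSeq start is shown for that motif. RefSeq entries (GRCh38.p14) were found for 7 of the 10 genes, with 11 starts. In the 250 bases before the RefSeq start of CDK4 (chr12:57752311-57752560, minus strand), capitals mark 3 E-boxes and 3 GC boxes. The GC box, GGGCGG on either strand, is the motif of Sp1. On this strand the listed gene starts at 57756013, so the window lies within it and the sequence before the listed start was not searched. Of all 35116 such windows 6.34% held the E-box and 42.6% a GC box. MYC itself had 194 counts in the reporter library and 133 in the control library (0.41, 0.09 to 0.74).

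CDK4: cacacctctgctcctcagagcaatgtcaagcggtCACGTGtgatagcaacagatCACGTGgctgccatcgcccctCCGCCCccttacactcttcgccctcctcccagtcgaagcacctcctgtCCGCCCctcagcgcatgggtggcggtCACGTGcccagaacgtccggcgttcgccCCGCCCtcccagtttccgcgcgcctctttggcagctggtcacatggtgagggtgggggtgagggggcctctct

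CDKN2A (ENSG00000147889, chromosome 9, 21967752 to 21995301, minus strand) was the other gene counted as higher. It had 86 counts in the reporter library and 34 in the control library, or 7.70 RPKM (6.16 to 9.51) against 3.17 (2.19 to 4.43). The log2 ratio was 1.21 (0.62 to 1.82), or 2.31-fold, and the intervals of the libraries did not overlap. Of 645 coding genes of similar count, 12 (1.86%) had a ratio at or above it, itself included. The other scalings and values gave 1.17 to 1.66. The count row joins p16 and ARF, which share exons in different reading frames, so the footprints of the 2 proteins were not separated.

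The 2 proteins start from separate promoters, and the 250 bases before each start are shown because one count covers both. The distal one precedes the first exon of ARF (chr9:21995325-21995574, minus strand) and the proximal one that of p16 (chr9:21974858-21975107, minus strand). Capitals mark the same motifs as above. The distal window held none, and the proximal one held 1 GC box.

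CDKN2A, ARF start: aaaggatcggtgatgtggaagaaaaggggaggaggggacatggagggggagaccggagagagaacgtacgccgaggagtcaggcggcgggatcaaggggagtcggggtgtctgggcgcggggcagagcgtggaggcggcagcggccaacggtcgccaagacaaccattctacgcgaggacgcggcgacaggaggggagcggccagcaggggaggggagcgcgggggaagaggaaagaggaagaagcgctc

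CDKN2A, p16 start: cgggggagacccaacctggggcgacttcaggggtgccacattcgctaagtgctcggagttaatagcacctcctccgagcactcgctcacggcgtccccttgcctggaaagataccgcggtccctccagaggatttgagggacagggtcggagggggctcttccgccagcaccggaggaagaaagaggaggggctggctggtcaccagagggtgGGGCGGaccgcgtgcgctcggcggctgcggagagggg

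CDK2 and its partner cyclin E1 act after the D-type cyclins. CDK2 (ENSG00000123374, chromosome 12, 55966781 to 55972789) had 12 counts in the reporter library and 26 in the control library, a log2 ratio of -1.25 (-2.37 to -0.21). Of 1844 coding genes of similar count, 99 (5.37%) had a ratio at or below it, itself included, and with total counts it was -0.79. CCNE1 (ENSG00000105173, chromosome 19, 29811991 to 29824312) had 11 counts against 7 (0.52, -0.98 to 2.13), too few to show a difference. CCNE1 made 47.8% (26.8 to 69.4%) of the counts of the pair with the reporter and 21.2% (8.98 to 38.9%) without it, and these intervals overlapped.

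RB1 and E2F1, the repressor and the factor it holds, lay near a ratio of 1. RB1 (ENSG00000139687, chromosome 13, 48303744 to 48599436) had 13 counts in the reporter library and 14 in the control library (-0.24, -1.45 to 0.96). E2F1 (ENSG00000101412, chromosome 20, 33675477 to 33686385) had 26 against 22 (0.11, -0.77 to 1.00). These intervals allow differences of up to 2.73-fold for RB1 and 2.00-fold for E2F1, so smaller ones were not detectable. The sign for RB1 turned to 0.22 with total counts.

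E2F1 is known to be induced by E2F itself, and its upstream sequence shows an E2F motif close to the start. In the 250 bases before the start (chr20:33686386-33686635, minus strand), capitals mark 1 copy of TTTGGCGC and 5 GC boxes. Of all windows 0.55% held TTTGGCGC on either strand. The related TTTCGCGC and TTTCCCGC (0.439% and 1.39% of windows) and the TATA box TATAAA (10.7%) were in none of the 11 windows of these genes. CCND1, CCND2 and CDK2 had no window. The only RB1 window (chr13:48476200-48476449) lies within the gene, which starts at 48303744, so the sequence before that start was not searched. Only these exact letters were searched, so the TTTCGCGG shortly before the marked TTTGGCGC of E2F1 was not counted. A match describes letters and does not show binding.

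E2F1: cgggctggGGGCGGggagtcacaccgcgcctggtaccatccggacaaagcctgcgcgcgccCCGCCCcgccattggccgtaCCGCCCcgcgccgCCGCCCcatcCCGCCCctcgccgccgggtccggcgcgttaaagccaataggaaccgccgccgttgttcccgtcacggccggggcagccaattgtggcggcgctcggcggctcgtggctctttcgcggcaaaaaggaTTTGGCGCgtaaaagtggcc

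Set side by side per listed gene length, the order of the levels differed between the libraries. With the reporter CCND1 (8.77 RPKM), CDKN2A (7.70) and CDK4 (7.54, 5.84 to 9.57) led with overlapping intervals, and E2F1 followed at 3.36 (2.20 to 4.93), below the intervals of all 3. CCNE1 at 1.56, CDK2 at 1.07, RB1 at 0.703, CCND2 at 0.653, CDK6 at 0.569 and CCND3 at 0.483 came next, with intervals that overlapped those of their neighbours. Without the reporter CDK4 led alone at 8.19 RPKM (6.38 to 10.3). CDKN2A at 3.17, E2F1 at 2.96, CDK2 at 2.42 and CCND1 at 1.90 followed, with neighbours that overlapped. The lowest there were CCND2 at 1.45, CCND3 at 1.19, CCNE1 at 1.03, CDK6 at 0.798 and RB1 at 0.788, again with overlapping neighbours. CCND1 thus stood in place 1 of 10 with the reporter and in place 5 without it. Among coding genes with a count, its RPKM exceeded 96.5% and 81.4%. RPKM divides by a length that includes untranslated sequence, and CDK6, listed at 12239 bases against 3094 for CDK4, has a very long 3′ untranslated region. Its level is therefore not directly that of its coding sequence.

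Other annotated rows in the same loci held few counts. The 26 rows that overlap a locus of the 10 genes had 50 counts in all, and the highest, LTO1 at the end of the CCND1 locus on the other strand, had 7 and 6. The 4 rows named as pseudogenes of CCND2, CCND3 and CDK4 had 0. Among genes with at least 100 counts, those nearest to CCND1 in ratio were COX6C at 1.52, BCCIP at 1.38 and STOML2 at 1.36. THRAP3 at 1.32 and FHL1 at 1.31 came next. All lay at least 0.61 below CCND1 over the 2 libraries, and that none lay above it follows from its choice. Nearest to CDKN2A were EPRS1, CHMP5, RCC1 and HDAC2, between 1.18 and 1.24.

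Beyond the 10 genes, the G1 pathway was followed through 9 lists of 90 genes, of which 73 had at least 20 counts. Of these, 5 were higher and 5 lower by the 2-fold rule. When libraries were scaled by total counts, 16 (21.9%) were higher and 0 lower, where the same rule took 20% of all coding genes as higher and 1.99% as lower. None of the lower calls below holds under that scaling. Their median log2 ratio was 0.09, against 0.06 for all 6296 coding genes. The shares of coding genes called, 6.69% and 6.54%, are the background for the counts below, which use TMM scaling unless total counts are named.

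Among the relatives of RB1 and E2F1, 7 of 11 genes were measured, with a median of 0.12. E2F6, a repressor of the family, was higher at 17 counts against 5 (1.63, 0.14 to 3.43), and E2F7, also a repressor, was lower at 19 against 40 (-1.21, -2.08 to -0.38). TFDP1, the partner of E2F proteins, had 93 against 78 (0.12). RBL2, a pocket protein like RB1, had 13 against 3 and stayed under the minimum. Of the other CDK inhibitors, 2 of 6 were measured and neither was called, CDKN1B (p27) at -0.35 and CDKN2C (p18) at -0.25. CDKN2B, next to CDKN2A on chromosome 9, had 3 counts against 10, below the minimum.

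Of 6 genes that activate or fold CDKs, 4 were measured. The CDK-activating kinase consists of CDK7, cyclin H and MNAT1, and its members differed. MNAT1 had 30 counts against 13 (1.07, 0.09 to 2.14) and was higher, CCNH had 10 against 26 (-1.51, -2.73 to -0.41) and was lower, and CDK7 had 11 against 3, under the minimum. CDC37, a chaperone partner that loads CDK4 onto HSP90, was at 0.98 (0.56 to 1.41), just short of 2-fold, and was counted as higher with total counts.

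Cyclin turnover had 11 of 12 genes measured and a median of -0.50, with 1 higher and 2 lower. With total counts SKP2 was also counted as higher. CUL4A, a ubiquitin ligase scaffold, was higher at 45 counts against 20 (1.04, 0.25 to 1.88). GSK3B, the kinase that marks cyclin D1 for export and degradation, was lower at 17 against 37 (-1.25, -2.18 to -0.39). USP2, a deubiquitinase of cyclin D1, was lower at 6 against 15 (-1.45, -3.11 to -0.01).

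The 4 genes around ARF and MDM2 were all measured, with a median of 0.01, and none was called. MDM2 was at 0.22 (-0.25 to 0.70) and HUWE1, a ubiquitin ligase that ARF inhibits, lowest at -0.12.

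Transcription factors that act on D-type cyclins had 10 of 13 genes measured and a median of 0.42, and none was called. With total counts FOS and STAT3 were counted as higher. FOS was highest at 22 counts against 10, but its interval included 0 (1.01, -0.13 to 2.25), and CREB1 lowest at -0.21. CTNNB1, or β-catenin, had 214 against 137 (0.51, 0.20 to 0.83). None of the 8 measured genes of translation control was called, and their median was 0.03. With total counts EIF4E and XPO1 were counted as higher. EIF4E, the cap-binding factor that favours cyclin D1 mRNA, had 40 against 21 (0.80, 0.00 to 1.63). Its inhibitors EIF4EBP2 and EIF4EBP1 were both at -0.96, with intervals of -1.60 to -0.34 and -2.32 to 0.30.

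Downstream, none of the 18 measured E2F target genes out of 19 was called, and their median was 0.03. With total counts 5 of the 18 (27.8%) were counted as higher, CCNA2, ORC1, RRM2, TK1 and UHRF1, against 20% of all coding genes. RRM2, a ribonucleotide reductase subunit, was highest at 0.98 (-0.05 to 2.10), and PCNA, the replication clamp, lowest at -0.72 (-1.10 to -0.35). Later cyclins and mitotic regulators had 10 of 11 genes measured, with a median of 0.14. With total counts CCNA2 was also counted as higher. CDC20, the activator of the anaphase-promoting complex, was higher at 69 counts against 20 (1.65, 0.92 to 2.45), as was CDC25C, a phosphatase that activates CDK1, at 17 against 5 (1.63, 0.14 to 3.43). CCNB2, a cyclin of mitosis, was lower at 10 against 24 (-1.40, -2.62 to -0.28).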

How the data were processed

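Ribosome profiling counts of 2 HEK293T libraries, 1 per group, were used. Groups follow the titles, since the treatment label of the culture without the reporter is worded ambiguously. The count table was deposited by the authors as whole-number counts per annotated row. RPKM values were deposited by the authors in a second table, and each equalled the count over the listed length and 1 library size (2873483 and 2762965). TopHat2 2.0.12, HTSeq 0.9.1 and the builds GRCh37 and hg19 are listed with no role per the submitters' processing notes. The coordinates in the files are nevertheless those of GRCh38, as all 10 genes overlap their RefSeq GRCh38.p14 loci. How the counting used strand or multiply matching reads is not stated in these sources, so reads of overlapping genes on opposite strands may not be told apart.

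Counts were scaled with edgeR 4.0.16 (TMM over all rows, R 4.3.3). Intervals were computed with scipy 1.17.1 in Python 3.11.15. They were tested on counts simulated with counting error alone, which cannot show how they hold for differences between cultures. They take each read as an independent molecule, which PCR copies are not. Alternatives were DESeq2 1.42.0 size factors, other totals and TMM row sets, RPKM with 0.1 added, thinning, count minimums of 1, 10 and 100, and a fold of 1.5. Named were the 10 genes, the 5 genes nearest in ratio to CCND1 and to CDKN2A, and called, highest or lowest list genes. A few others were chosen after their values were seen, namely MYC, CTNNB1, TFDP1, RBL2, CDKN2B, CDK7, CDC37, MDM2 and EIF4EBP2. So were the named markers of HEK293 and other cells, and list genes called with total counts alone. From the lists, 1 pathway gene and 1 leukocyte marker are not reported here and are left out of the list counts and medians. The genes and lists were chosen with earlier results of these data known. A planned comparison of protein sequences was not run, as protein sequences were not used here.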

Additional observations from a re-analysis of the deposited data

How the results depend on the processing

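Over the alternatives run, CCND1 and CDKN2A were counted as higher each time. For some of these no other outcome was possible. With summed counts of 145 and 120 both genes pass every minimum used, and a fold of 1.5 cannot remove a call. The RPKM values were called by the 2-fold limit alone, without an interval. The 3 genes counted as lower, CCND2, CCND3 and CDK2, became 0 when libraries were scaled by the total counts of all rows, and 0 at a minimum summed count of 100, which leaves out all 3. The reporter library, deeper in coding genes with 346240 counts against 307768, was thinned to that depth in 1 random draw. Of the 3 genes, 2 were then still counted as lower, and CCND3 was not. In all, 90 of 92 recomputed values stayed within the counting interval or within 1.5 times the count. A change of scaling shifts all 10 genes by the same amount, and genes with few counts have wide intervals. The 92 values are therefore not independent checks. The planned ranking by counts per kb over coding totals is no check, since another total cannot change ranks within a library. At this depth 7 of the 10 genes had fewer than 100 counts, and the intervals cover counting error only. No paired analysis was possible because each group had 1 library.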

Other observations

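Along chromosome 11, the coding genes next to CCND1 had few or no footprints. SMIM38, MYEOV and FGF19 had 0 counts in both libraries, and LTO1 had 7 with the reporter and 6 without it. Next to CDKN2A on chromosome 9, the methionine salvage gene MTAP had 14 counts in the reporter library and 4 in the control library. CDKN2B on the other side had 3 against 10. DMRTA1 had 2 against 0, and the interferon gene IFNE had 0 in both.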
